A study of Mus musculus with 6 samples.

Results

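Many mammalian genes on the X chromosome have an autosomal copy that arose when a spliced messenger RNA was copied back into the genome. Such a copy is called a retrogene, and the X-linked gene it came from is its parent. The X chromosome is silenced in spermatocytes during meiosis, and autosomal retrogenes with testis expression are known to supply the product of the silent parent. The 10 genes described here are 5 such pairs in the mouse, chosen by name: Rpl10 and Rpl10l, Rpl39 and Rpl39l, Cetn2 and Cetn1, Cstf2 and Cstf2t, and Utp14a and Utp14b, the parent named first each time. All 10 were among the 53700 gene identifiers of the count tables, and all 10 were among the 21902 with enough reads to be tested.

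RNA came from whole testes of mice at postnatal day 45. The labels call the 6 libraries biological replicates, and each is taken here as 1 mouse. The strain of all 6 is given as Msl3em1Forni/C57BL/6J. Of the mice, 3 carry the genotype label MSL3 WT (called WT here) and 3 the label MSL3 cKO, a conditional knockout of a floxed Msl3 allele (called cKO here). The Cre line, the cells in which it acts and any Cre carried by the WT mice are not given in the sources used here. The series asks whether loss of Msl3, which encodes a chromatin-binding protein of a histone acetyltransferase complex, alters spermatogenesis.

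Libraries held between 56991431 and 73766444 reads assigned to genes. The targeted gene was examined first: Msl3 had 942, 1226 and 990 reads in the WT libraries and 1170, 829 and 923 in the cKO libraries, a log2 fold change of -0.12 (SE 0.088, edgeR adjusted p 0.551). No lowering of the gene count was detected. The count covers all exons, so it cannot show a deletion of a part of the gene, and WT and cKO are used below as labels of libraries. Markers of germ cells and of testis somatic cells were present in every library, and those of epididymis summed to at most 0.832 CPM (reads scaled to a common library size), with 2 of 6 at 0 in all libraries. The library labelled cKO 2 stood apart most: its counts differed from those of each of the other 5 libraries by a chi-square per gene of 13.2 to 41.9, where WT 1 and cKO 1 differed by 5.25. Fold changes of members that moved by over 1.5 times when it was omitted are given without it as well.

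The parents all lie on the X chromosome and their coding sequences are split over several exons, while each retrogene has its coding sequence in 1 exon on an autosome. Positions are those of GENCODE M21 on GRCm38 (mm10). Rpl10 (ENSMUSG00000008682, chrX:74270812-74273135, plus strand, 6 coding exons) has its copy Rpl10l at chr12:66283379-66284401 on the minus strand (ENSMUSG00000060499). Rpl39 (ENSMUSG00000079641, chrX:37082520-37085402, minus strand, 3 coding exons) has Rpl39l at chr16:10170226-10174911 on the plus strand (ENSMUSG00000039209). Cetn2 (ENSMUSG00000031347, chrX:72913532-72918411, minus strand, 5 coding exons) has the autosomal Cetn1 (ENSMUSG00000050996). Cstf2 (ENSMUSG00000031256, chrX:134059187-134086819, plus strand, 13 coding exons) has Cstf2t at chr19:31082837-31087069 (ENSMUSG00000053536), inside the span of Prkg1 and on its opposite strand. Utp14a (ENSMUSG00000063785, chrX:48256862-48282453, plus strand, 15 coding exons) has Utp14b at chr1:78658038-78671512 (ENSMUSG00000079470), overlapping Acsl3 on the same strand. Rpl10l and Cstf2t have a single exon in all, whereas Rpl39l, Cetn1 and Utp14b have 3, 2 and 3 exons, the others being noncoding.

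Whether a 75-base read can be told apart between parent and retrogene depends on how far the copies have diverged. The coding sequences without the stop codon were aligned, and 84.7% of aligned bases were identical for Rpl10 and Rpl10l, 85.0% for Rpl39 and Rpl39l, 79.5% for Cetn2 and Cetn1, 74.4% for Cstf2 and Cstf2t and 77.7% for Utp14a and Utp14b. The longest stretch without a difference was 38 bases, in the Rpl39 pair, and 23 to 30 bases in the other 4 pairs. No 75-base stretch of any of the 10 transcripts occurred in its pair partner.

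The whole coding sequences of the smallest pair are shown because every difference can be seen. They are in lower case with the 23 of 153 bases that differ in capitals, Rpl39 from chrX:37082704-37085127 (minus strand, 3 exons spliced) and Rpl39l from chr16:10174310-10174462 (plus strand, 1 exon).
Rpl39: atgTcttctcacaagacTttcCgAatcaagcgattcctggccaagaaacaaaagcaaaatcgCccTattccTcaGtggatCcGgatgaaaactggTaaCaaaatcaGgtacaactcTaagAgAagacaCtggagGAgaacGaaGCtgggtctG
Rpl39l: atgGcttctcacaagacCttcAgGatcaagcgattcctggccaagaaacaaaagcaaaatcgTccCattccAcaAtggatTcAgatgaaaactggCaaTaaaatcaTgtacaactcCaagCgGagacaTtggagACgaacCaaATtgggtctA

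The first 240 coding bases of Rpl10 (chrX:74271002-74272228, plus strand, 4 exons spliced) and Rpl10l (chr12:66284118-66284357, minus strand) are shown because most differences in that pair fall at the last base of a codon. Capitals mark the 41 bases that differ.
Rpl10: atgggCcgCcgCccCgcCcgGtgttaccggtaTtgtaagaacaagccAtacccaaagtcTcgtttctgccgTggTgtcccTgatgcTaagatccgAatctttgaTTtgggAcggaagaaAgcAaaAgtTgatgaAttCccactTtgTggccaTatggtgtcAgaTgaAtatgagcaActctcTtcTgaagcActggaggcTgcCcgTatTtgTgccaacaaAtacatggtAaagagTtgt
Rpl10l: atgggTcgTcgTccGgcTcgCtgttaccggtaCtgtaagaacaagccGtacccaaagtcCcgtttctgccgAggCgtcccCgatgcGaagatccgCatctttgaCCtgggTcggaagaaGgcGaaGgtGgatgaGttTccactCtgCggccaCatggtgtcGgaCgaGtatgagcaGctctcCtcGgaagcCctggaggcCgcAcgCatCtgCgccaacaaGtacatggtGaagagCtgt

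Over the whole coding sequence, 89 of the 98 differences between Rpl10 and Rpl10l were at codon position 3 (90.8%). The share was 69.6% for the Rpl39 pair, 72.4% for the Cetn2 pair, 59.8% for the Cstf2 pair and 47.5% for the Utp14a pair. The GC content of codon position 3 was 77.1% in Rpl10l against 57.5% in Rpl10, and 59.3% in Cetn1 against 47.1% in Cetn2. It was 54.9% in Rpl39l against 58.8% in Rpl39, so the higher value was not on the same side in every pair. The first 240 coding bases of Cstf2 (chrX:134059365-134061047, plus strand, 3 exons spliced) and Cstf2t (chr19:31083066-31083305, plus strand) show a more diverged pair, with 48 differing bases in capitals.
Cstf2: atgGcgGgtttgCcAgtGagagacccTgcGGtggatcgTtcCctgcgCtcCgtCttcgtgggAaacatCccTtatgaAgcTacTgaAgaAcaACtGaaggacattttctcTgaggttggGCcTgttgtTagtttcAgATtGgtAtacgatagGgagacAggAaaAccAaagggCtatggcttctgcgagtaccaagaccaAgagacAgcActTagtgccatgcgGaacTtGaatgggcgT
Cstf2t: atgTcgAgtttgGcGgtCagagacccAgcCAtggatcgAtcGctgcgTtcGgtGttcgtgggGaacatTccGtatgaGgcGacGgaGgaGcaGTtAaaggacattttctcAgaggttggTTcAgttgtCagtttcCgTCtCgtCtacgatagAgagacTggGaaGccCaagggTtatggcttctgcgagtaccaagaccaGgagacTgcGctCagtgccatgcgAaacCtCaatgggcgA

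Sequence shared with genes other than the partner differed strongly between members. In Rpl10, 663 of the 781 possible 75-base stretches of the transcript (84.9%) also occurred in transcripts at other loci, all of these 663 in Rpl10-ps3 on chromosome 9. Rpl10-ps3 itself had between 1 and 5 reads in a library. Only 118 positions of Rpl10 occurred in no other gene, against 946 of 949 in Rpl10l. In Rpl39 the share found elsewhere was 7.62%, and in Rpl39l, Cetn2, Cetn1, Cstf2, Cstf2t, Utp14a and Utp14b none was found at another locus. Utp14b shared 133 of 7319 positions with Acsl3, which overlaps it on the same strand. The deposited tables hold uniquely placed reads, so the count of Rpl10 may be that of a small part of its transcript. Stretches were compared between spliced transcripts, and which positions gave counted reads was not examined.

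Levels are given as CPM with scaled library sizes, and between genes as CPM per kilobase of the longest transcript. In WT libraries the highest levels per kilobase were those of Cetn1 (372 ± 22.5, SD, n = 3) and Rpl39l (371 ± 58.5, SD, n = 3), which did not differ beyond their spread, and then Rpl10l (210 ± 6.52, SD, n = 3). The parents Rpl10 (21.5 ± 1.51, SD, n = 3, a count its shared sequence may lower) and Cstf2 (16.5 ± 0.677, SD, n = 3) followed. Next came Cstf2t (14.8 ± 0.744, SD, n = 3), Rpl39 (10.2 ± 0.836, SD, n = 3) and Cetn2 (6.44 ± 0.404, SD, n = 3). The lowest were Utp14a (4.14 ± 0.364, SD, n = 3) and Utp14b (4.06 ± 0.256, SD, n = 3), again not different beyond their spread. With its shorter transcript, Utp14b was 1.76 to 2.75 times as high as Utp14a over the libraries. Cetn1 and Rpl39l also have shorter transcripts, of 1051 and 550 bases, for which levels were not ranked. The same 3 retrogenes led in the cKO libraries, where Cetn1 was at 345 ± 32.7 CPM per kilobase (SD, n = 3). In whole tissue, fewer cells of a type and less RNA per cell cannot be told apart.

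**Figure D1:**
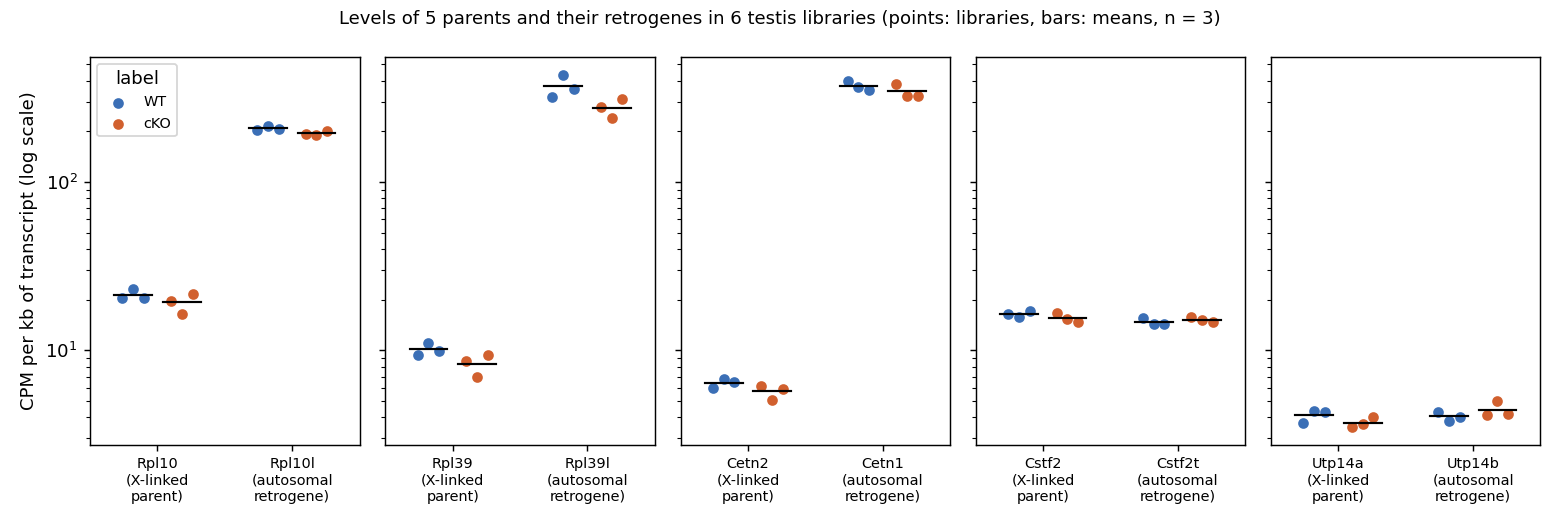
Levels in CPM per kilobase of transcript (log axis) of each parent and its retrogene in the 3 WT and 3 cKO libraries, points being libraries and bars group means. On this scale Rpl10l, Rpl39l and Cetn1 lie far above their parents in every library, while the Cstf2 and Utp14a pairs lie at like levels. Rpl10 may be undercounted, and per position found in no other gene Rpl10l is 1.38 to 1.71 times as high. That value takes shared stretches to have given no reads. With its shorter transcript Utp14b is 1.76 to 2.75 times as high as Utp14a.

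The ribosomal protein pairs come first. Rpl10 and Rpl39 encode proteins of the large ribosomal subunit, and Rpl10l and Rpl39l encode their testis forms. Rpl10l is known to be required for male meiosis, and Rpl39l to be built into ribosomes of male germ cells. For each read of Rpl10 there were 11.9, 11.2 and 12.1 reads of Rpl10l in WT 1, 2 and 3, and 11.8, 13.7 and 11.1 in cKO 1, 2 and 3. The groups overlapped and the extreme values were both in cKO libraries. On the log2 scale the parent to retrogene ratio was -3.55 ± 0.059 (SD, n = 3) in WT and -3.60 ± 0.16 (SD, n = 3) in cKO, a difference of -0.05 (exact permutation p = 0.9). Without cKO 2 the difference was 0.035.

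Per kilobase of transcript Rpl10l was 9.26 to 11.5 times as high as Rpl10 over the 6 libraries. Counted per position found in no other gene, it was 1.38 to 1.71 times as high. The latter count takes shared stretches to have given no reads, which was not examined. The size of the gap between these genes thus depended on how the shared sequence of Rpl10 was treated. Rpl10 was at 17.6, 19.8 and 17.6 CPM in WT and 16.8, 14.1 and 18.6 CPM in cKO, and Rpl10l at 209, 222 and 213 CPM and 198, 194 and 206 CPM. The 3 cKO values of Rpl10l lay below the 3 WT values, those of Rpl10 did not. On the log2 scale cKO minus WT was -0.15 (SE 0.10) for Rpl10 and -0.11 (SE 0.063) for Rpl10l, and neither passed (edgeR adjusted p 0.524 and 0.476). Without cKO 2 the value for Rpl10 was -0.05.

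Rpl39l had 15074, 22665 and 17979 reads in WT and 16369, 10813 and 14572 in cKO, or 256, 349 and 289 CPM against 224, 193 and 249 CPM. All 3 cKO libraries lay below all 3 WT libraries, with WT 2 the highest and cKO 2 the lowest. The log2 fold change was -0.42 (SE 0.11, 95% interval -0.67 to -0.17), the largest in size of the 10 members, and it did not pass (edgeR unadjusted p 0.00308, adjusted p 0.276). DESeq2 did call it (adjusted p 0.0259), as did edgeR without a filter on low counts (adjusted p 1.5e-05), the range over all alternatives being 1.5e-05 to 0.730. DESeq2 called 1.4% of the 13761 genes to which it gave an adjusted p, and edgeR without the filter 2.07% of 36605. Without WT 2 the log2 fold change was -0.30 (edgeR adjusted p 0.670), and without cKO 2 it was -0.33 (edgeR adjusted p 0.584).

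Its parent Rpl39 had few reads, 340, 440 and 378 in WT and 388, 237 and 334 in cKO, or 5.78, 6.78 and 6.08 CPM against 5.32, 4.24 and 5.72 CPM. The libraries ranked as they did for Rpl39l at both ends, WT 2 highest and cKO 2 lowest, and the groups did not overlap. Its log2 fold change of -0.29 (SE 0.12) did not pass (edgeR adjusted p 0.344), and without cKO 2 it was -0.17. Because parent and copy lay on the same side, the reads of Rpl39l per read of Rpl39 moved less than either gene: 44.3, 51.5 and 47.6 in WT and 42.2, 45.6 and 43.6 in cKO. The groups overlapped, and the log2 ratio was -5.58 ± 0.11 (SD, n = 3) against -5.45 ± 0.057 (SD, n = 3), a difference of 0.12 (exact permutation p = 0.2). Per kilobase Rpl39l was 32.1 to 39.2 times as high as Rpl39, or 46.9 to 57.3 times with the shorter transcript of Rpl39l.

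Rpl39l varied more between mice of 1 group than most genes of its level. The SD of its log2 CPM was 0.22 over the WT libraries and 0.18 over the cKO libraries, and among genes over 100 CPM, 98.5% and 89.6% had a smaller one. For Rpl10l, at a like level, 30.9% and 15.4% did. Of 46 other large-subunit protein genes tested, none was called. A log2 fold change below 0 was seen for 41 of them, against 49.3% of all genes, and the median was -0.16. For 15 the cKO libraries lay below the WT libraries without overlap, against 8.85% of all genes, and 16 had an unadjusted edgeR p under 0.05, against 13.9% of all genes. Of these 46, 0 had a lower log2 fold change than Rpl39l, 4 a lower one than Rpl39, 24 than Rpl10 and 31 than Rpl10l. The summed level of the 47 listed genes was 5284, 5579 and 5294 CPM in WT and 5120, 4410 and 5041 CPM in cKO, lowest in the library where Rpl39l and Rpl39 were lowest. Its part in the values of Rpl39 and Rpl39l was not tested. The X-linked ribosomal protein genes outside the 5 pairs, Rpl36a and Rps4x, were at -0.21 and -0.26, and neither was called.

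**Figure D2:**
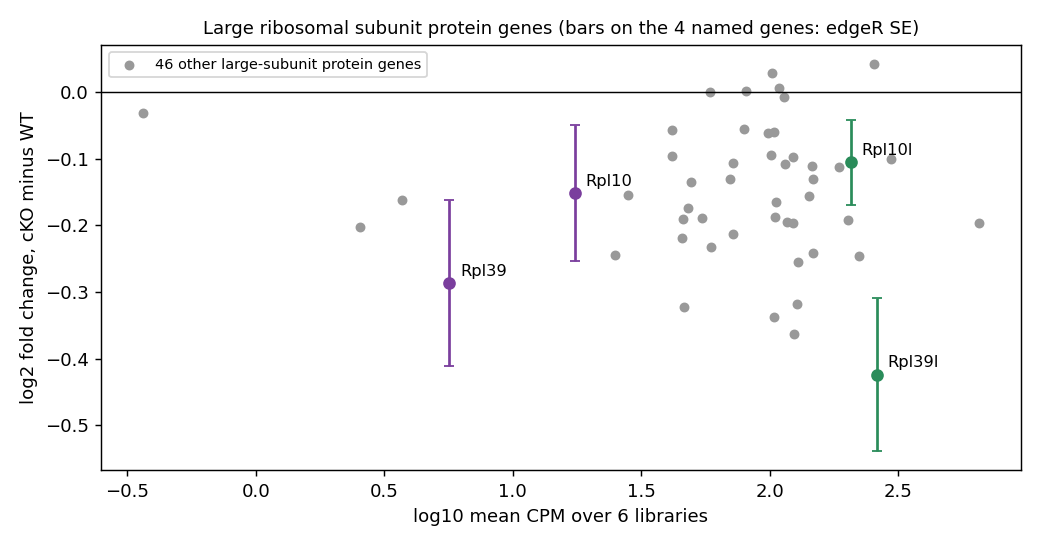
Log2 fold change (cKO minus WT) against log10 mean CPM for 46 large ribosomal subunit protein genes (grey) and the 4 ribosomal members, with the standard error of edgeR on the latter. Rpl39l lies lowest at -0.42, while Rpl10 and Rpl10l lie inside the range of the other genes.

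The centrin pair had the widest gap between copy and parent. Centrins are calcium-binding proteins of centrioles and basal bodies, Cetn2 being present in most cells and Cetn1 in male germ cells and ciliated cells. Cetn1 had 29041, 29769 and 27268 reads in WT and 34857, 22810 and 23748 in cKO, or 494, 459 and 439 CPM against 478, 408 and 407 CPM. Cetn2 was at 7.72, 8.75 and 8.37 CPM in WT and 7.95, 6.54 and 7.62 CPM in cKO. The groups overlapped for both genes, with log2 fold changes of -0.11 (SE 0.080, edgeR adjusted p 0.573) for Cetn1 and -0.17 (SE 0.10, edgeR adjusted p 0.487) for Cetn2. Without cKO 2 these were -0.07 and -0.09.

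For each read of Cetn2 there were 64.0, 52.4 and 52.4 reads of Cetn1 in WT and 60.1, 62.3 and 53.4 in cKO, so that the highest value was that of WT 1. The log2 ratio was -5.81 ± 0.17 (SD, n = 3) in WT and -5.87 ± 0.12 (SD, n = 3) in cKO, a difference of -0.06 (exact permutation p = 0.8). Without cKO 2 it was -0.016, and without WT 1 it was -0.16. Per kilobase Cetn1 was 54.0 to 66.0 times as high as Cetn2. Of 12 other centrins and centrin partners, none was called, and 8 had a log2 fold change above 0 and 4 below, with a median of 0.03. Of all genes, 49.3% were below 0. The smallest p above 0 was that of the centriole protein gene Poc1b (0.20, SE 0.068, edgeR adjusted p 0.298), and below 0 that of Cetn3 (-0.10, SE 0.084, edgeR adjusted p 0.608).

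The Cstf2 pair differed from the first 3 pairs in that the parent was not the minor partner. Cstf2 and Cstf2t encode forms of the RNA-binding subunit of the cleavage stimulation factor, which acts in forming the 3′ ends of messenger RNAs, and Cstf2t is known to be required for male fertility in mice. Cstf2 had 4377, 4602 and 4785 reads in WT and 5477, 3874 and 3892 in cKO, and Cstf2t 3899, 3953 and 3781 against 4892, 3573 and 3655. There were 0.891, 0.859 and 0.790 reads of Cstf2t per read of Cstf2 in WT and 0.893, 0.922 and 0.939 in cKO. Of the 5 pairs, this was the only one whose groups did not overlap, though WT 1 and cKO 1 were nearly level. The log2 ratio was 0.24 ± 0.089 (SD, n = 3) in WT and 0.12 ± 0.037 (SD, n = 3) in cKO, a difference of -0.12 with the smallest p that 3 libraries against 3 can give (exact permutation p = 0.1, 0.333 adjusted over the 5 pairs). With reads of both strands counted the difference was -0.11 (exact permutation p = 0.2).

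Neither gene of that pair passed the test by itself. Cstf2 was at 74.1 ± 3.05 CPM (SD, n = 3) in WT and 70.3 ± 4.32 CPM (SD, n = 3) in cKO, differing by -0.08 on the log2 scale (SE 0.070, edgeR adjusted p 0.665). Cstf2t was at 62.7 ± 3.15 CPM (SD, n = 3) and 64.5 ± 2.30 CPM (SD, n = 3), differing by 0.04 on the log2 scale (SE 0.068, edgeR adjusted p 0.830). Cstf2t was the steadiest member, its highest library being 1.10 times its lowest. Per kilobase the copy was 0.840 to 0.999 times as high as the parent. Of 20 partners in 3′ end processing, none was called, and 15 had a log2 fold change above 0 and 5 below, with a median of 0.08. Of all genes, 49.3% were below 0. For 5 the cKO libraries lay above the WT libraries without overlap, and for 1 below, against 10% and 8.85% of all genes. An unadjusted edgeR p under 0.05 was seen for 5, against 13.9% of all genes. Rbbp6 was at 0.36 (SE 0.12, edgeR adjusted p 0.300), and Papolb, the testis poly(A) polymerase gene and itself a retrogene, at -0.15 (SE 0.067, edgeR adjusted p 0.355).

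Utp14a and Utp14b encode a protein of the small-subunit processome, which cuts and folds ribosomal RNA precursors, and loss of Utp14b is the cause of juvenile spermatogonial depletion in mice. Utp14a had 548, 710 and 675 reads in WT and 641, 510 and 588 in cKO, or 9.32, 10.9 and 10.9 CPM against 8.79, 9.11 and 10.1 CPM. Utp14b had 1882, 1835 and 1844 reads against 2240, 2062 and 1822, or 32.0, 28.3 and 29.7 CPM against 30.7, 36.8 and 31.2 CPM, highest in cKO 2. The groups overlapped for both genes. The log2 fold change was -0.16 (SE 0.097, edgeR adjusted p 0.492) for Utp14a and 0.13 (SE 0.087, edgeR adjusted p 0.506) for Utp14b. The latter was 0.05 without cKO 2.

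This pair had the largest difference in ratio, 3.43, 2.58 and 2.73 reads of Utp14b per read of Utp14a in WT and 3.49, 4.04 and 3.10 in cKO. WT 1 lay among the cKO libraries and the groups overlapped. The log2 ratio was -1.53 ± 0.22 (SD, n = 3) in WT and -1.82 ± 0.19 (SD, n = 3) in cKO, a difference of -0.28 (exact permutation p = 0.2, 0.333 adjusted over the 5 pairs). Without WT 1 the difference was -0.41, and without cKO 2 it was -0.19. Per kilobase the copy was 0.876 to 1.37 times as high as the parent, or 1.76 to 2.75 times with the shorter transcript of Utp14b, so the order of the pair depended on the transcript chosen. Of 32 processome partners, none was called, and 23 had a log2 fold change above 0 and 9 below, with a median of 0.06. Of all genes, 49.3% were below 0. For 7 the cKO libraries lay above the WT libraries without overlap, and for 1 below, against 10% and 8.85% of all genes. An unadjusted edgeR p under 0.05 was seen for 6, against 13.9% of all genes. Utp20 was at 0.30 (SE 0.081, edgeR adjusted p 0.276) and Emg1 at -0.11 (SE 0.068, edgeR adjusted p 0.473).

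**Figure D3:**
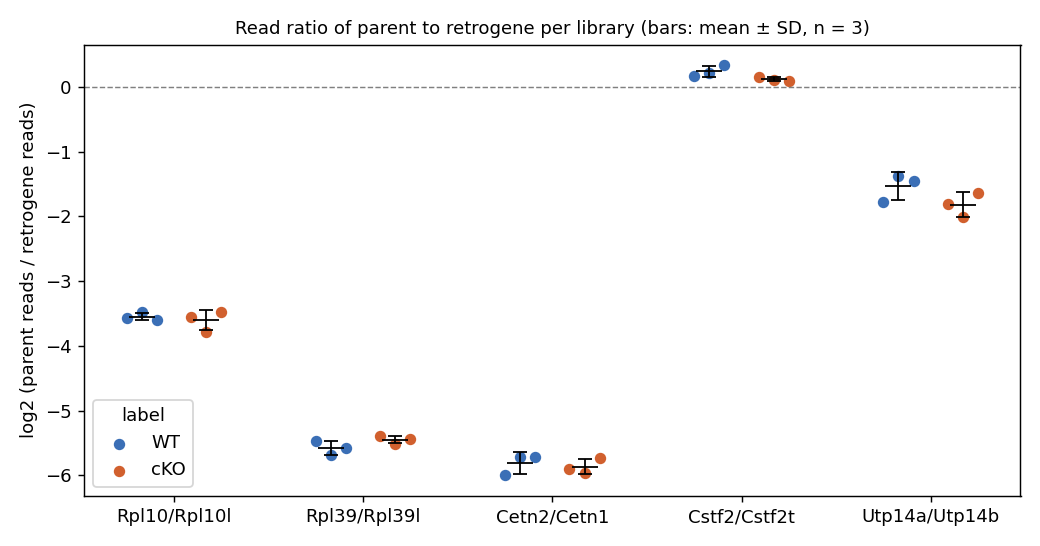
Log2 ratio of parent reads to retrogene reads in each library (points), with mean and SD of the 3 WT and 3 cKO libraries for the 5 pairs. The pairs differ from each other far more than the groups do, and the groups are apart without overlap only for Cstf2/Cstf2t.

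**Figure D4:**
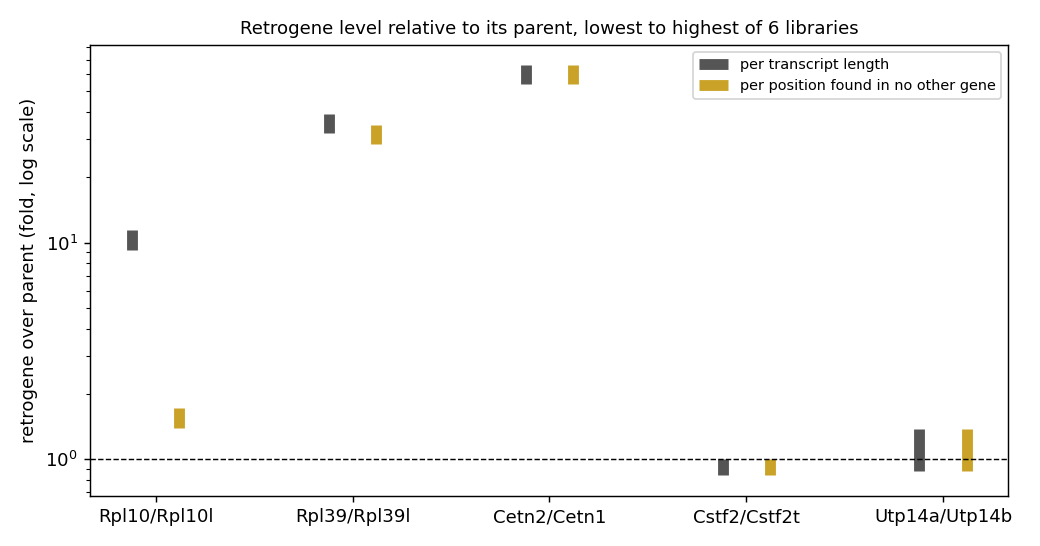
Level of each retrogene relative to its parent (fold, log axis), from the lowest to the highest of the 6 libraries, per kilobase of transcript (grey) and per position found in no other gene (yellow). For Rpl10/Rpl10l the range falls from 9.26 to 11.5 down to 1.38 to 1.71, and the other 4 pairs move little. The yellow values take shared stretches to have given no reads.

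Over the 10 members, 0 passed an edgeR adjusted p of 0.05, against 0.0183% of all 21902 genes, the lowest adjusted p being 0.276. At an unadjusted p under 0.05 there were 2, Rpl39 and Rpl39l, where 13.9% of all genes were. The groups did not overlap for 3 members, Rpl10l, Rpl39 and Rpl39l, each lower in cKO, against 8.85% of all genes apart in that direction. Of the 10, 8 had log2 fold changes below 0, against 49.3% of all genes. The median was -0.13 over the members and 0.0031 over all genes. All 5 parents had values below 0, from -0.29 to -0.08, where the median of the 856 tested X-linked genes was -0.06 and 60.6% were below 0. Of the retrogenes 3 of 5 had values below 0. The 5 parents summed to 115, 117 and 120 CPM in WT and 114, 103 and 109 CPM in cKO, and the 5 retrogenes to 1057, 1119 and 1031 CPM and 998, 895 and 955 CPM, without overlap in either case. The parent sums were barely apart, WT 1 at 114.9 and cKO 1 at 114.0 CPM, and Cstf2, at 74.1 CPM in WT, made up most of them. Of the retrogenes, Rpl39l went from a mean of 298 CPM in WT to 222 in cKO, while the sum went from 1069 to 950. Cstf2t and Utp14b were higher in cKO on average.

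Cell type markers were read beside these sums. The 10 round spermatid markers summed to between 1883 and 1978 CPM in WT and between 1690 and 1802 CPM in cKO, without overlap, and all 10 had log2 fold changes below 0, none called. The 10 markers of pachytene and diplotene spermatocytes summed to 3758 to 3834 CPM and 3703 to 3909 CPM, and the 10 of elongating spermatids to 20578 to 22776 CPM and 18118 to 21634 CPM, both with overlap. Of these, 6 of 10 in each list had log2 fold changes below 0. Spermatogonial markers summed to 190 to 219 CPM and 195 to 219 CPM, with 8 of 10 above 0, and Sertoli markers to 1441 to 1742 CPM and 1468 to 1908 CPM, with 9 of 10 above 0. Endothelial markers summed to 41.0 to 41.7 CPM in WT and 42.6 to 51.6 CPM in cKO, without overlap, with 5 of 6 above 0. Macrophage markers summed to 137 to 167 CPM and 134 to 154 CPM, with overlap and with 9 of 10 below 0. Leydig markers summed to 1022 to 1211 CPM and 943 to 1211 CPM, with 6 of 10 below 0, and peritubular myoid markers to 175 to 183 CPM and 172 to 189 CPM, with 5 of 7 below 0. No marker in these lists was called. Their part in the sums of parents and retrogenes was not tested.

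A further 9 X-linked parents with testis-expressed autosomal copies were compared in the same way: Pgk1 and Pgk2, Pdha1 and Pdha2, G6pdx and G6pd2, Gk and Gk2, Rbmx and Rbmxl2, Zrsr2 and Zrsr1, Prps1 and Prps1l1, Timm8a1 and Timm8a2, and Fam50a and Fam50b. None of these 18 genes was called, and their log2 fold changes ranged from -0.25 to 0.17 with a median of -0.06, 11 of 18 being below 0. The groups did not overlap for 3 of them, Prps1 and Gk2 lower and Zrsr1 higher in cKO, where 18.9% of all genes did not overlap in either direction. An unadjusted edgeR p under 0.05 was seen for 3, Pgk2 and Gk2 lower and G6pd2 higher in cKO, against 13.9% of all genes. The log2 ratio overlapped between the groups in all 9 pairs, and the lowest of the 9 exact permutation p was 0.3.

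The 9 pairs spanned a wider range of gaps than the 5. Gk2, a glycerol kinase gene, had 285 to 343 reads per read of Gk, and Pgk2, the phosphoglycerate kinase gene of sperm, 147 to 181 per read of Pgk1. Of Pgk1, 67.5% of positions occurred at other loci, mostly in the pseudogene Pgk1-rs7, and per position found in no other gene the fold of Pgk2 over Pgk1 was 53.9 to 66.2 in place of 165 to 203 per kilobase. Pdha2 had 17.3 to 23.2 reads per read of Pdha1, Timm8a2 had 32.3 to 58.7 per read of Timm8a1, and G6pd2 had 3.18 to 4.08 per read of G6pdx. Of Timm8a1, 39.9% of positions also occurred in the pseudogene Gm9797. The fold of Timm8a2 over Timm8a1 was 50.3 to 91.4 per kilobase and 31.2 to 56.6 per position found in no other gene. As for Rpl10l, the per-position folds of Pgk2 and Timm8a2 take shared stretches to have given no reads. Zrsr1, with 0.928 to 1.31 reads per read of Zrsr2, was near its parent in reads, and 0.565 to 0.796 times as high per kilobase.

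**Figure D5:**
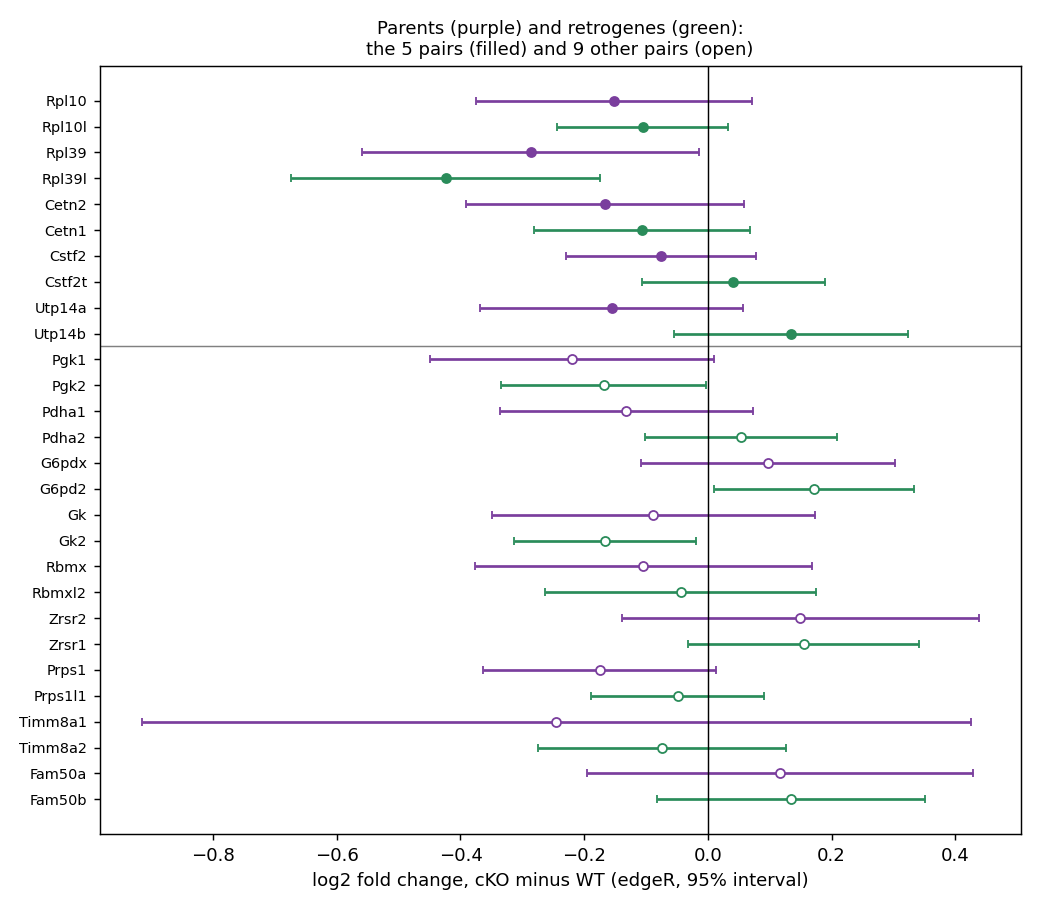
Log2 fold change (cKO minus WT) with the 95% interval of edgeR for parents (purple) and retrogenes (green), the 5 pairs filled and the 9 other pairs open. Of the 10 members, only the intervals of Rpl39 and Rpl39l leave out 0, and in the 9 other pairs those of Pgk2, Gk2 and G6pd2 do. None of the 28 genes passed the adjusted threshold.

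The genes whose values over the 6 libraries were most like those of each retrogene were found among 10050 other genes averaging 10 CPM or more, by the root mean square difference of log2 CPM centred on each gene's mean. They were Cdkn1b for Rpl10l (0.014), the noncoding gene Gm13872 for Rpl39l (0.034), Tinf2 for Cetn1 (0.014), Prpf31 for Cstf2t (0.011) and Efcab8 for Utp14b (0.010). The retrogenes' own values were spread around their means by 0.064, 0.27, 0.11, 0.054 and 0.12 on the same scale. Gm13872, the nearest to Rpl39l, was at 31.1 CPM in WT and 23.5 CPM in cKO, a log2 fold change of -0.41. The nearest genes were picked from 10050 for likeness over these same 6 libraries, so like fold changes follow from the choice. They are no evidence of a link between the genes.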

How the data were processed

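The authors deposited 1 table per library with raw read counts per gene for 3 WT and 3 cKO testes, in the layout of STAR gene counts. The submitters' processing notes name STAR, HTSeq, DESeq2 and mm10, without versions or roles. The annotation release, the library kit and read filters are not given in the sources used here. Per the labels, reads were single-end and 75 bases long. Opposite-strand counts, 96.0% to 96.2% of the reads on both strands, were used. Reads not assigned to a single gene, 14.8% to 16.7% of all reads in the tables, entered neither library sizes nor tests. Symbols and gene models are those of GENCODE M21, where 52147 of 53700 identifiers were found. Reads that match several loci are left out of the counts, which can lower genes with near-identical copies.

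Tests used edgeR 4.0.16 in R 4.3.3 with TMM scaling, a low-count filter (filterByExpr, minimum 10 reads), the quasi-likelihood test and Benjamini-Hochberg adjustment over all 21902 genes. Standard errors come from the F statistic. Ratios were tested by a two-sided exact permutation test of 3 libraries against 3, whose smallest p is 0.1. The alternative tool was DESeq2 1.42.0. Per-length values used the longest transcript among those with the longest coding sequence. On simulated counts for this comparison over 21663 genes, edgeR recovered 96% of log2 changes of 1 and 55% of 0.5, with 17 false calls. The changes were planted only in genes above a minimum mean count, 100 of each size. Simulated libraries varied independently, without variation shared by genes, so recovery in these data may be lower. Alternatives were other scalings, filters, strand, an adjusted p threshold of 0.1, a replicate block, DESeq2 and each library left out.

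The members, lists and naming rules were chosen with earlier results of these data known. Named genes were the 10 members, the other pairs with at least 10 reads per library, the gene of each partner list with the smallest p on each side of 0, and the nearest gene to each retrogene. The labels call the samples biological replicates.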

Additional observations from a re-analysis of the deposited data

How the results depend on the processing

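The alternatives per position found in no other gene and with the shorter transcript were chosen after seeing the data. The number of genes called was 4 with all libraries, 757 without a filter on low counts, 193 with DESeq2 and 2 with unstranded counts, and 1 to 628 with a library omitted (116, 2 and 1 without WT 1, 2 and 3, and 628, 1 and 7 without cKO 1, 2 and 3). The number of members called was 0, and 1 with DESeq2 or without the filter, Rpl39l each time. It was 0 whichever of the 6 libraries was omitted. The cause was not tested. All 10 members kept the sign of their log2 fold change in the 14 alternatives. The alternative adjusted p threshold of 0.1 reuses the main fit, so its signs were fixed in advance. The ratio of Rpl10 to Rpl10l changed sign without cKO 2, its difference being 0.035 there and running from -0.12 to 0.035 over the left-out libraries. The other ratios kept theirs in the 10 alternatives tried, with differences over the left-out libraries from 0.07 to 0.18 for Rpl39, -0.16 to -0.01 for Cetn2, -0.16 to -0.07 for Cstf2 and -0.41 to -0.19 for Utp14a. Among these alternatives, the replicate block and the parent's share of pair reads rest on the same ratios, so they could hardly change a sign.

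The pairing of replicate numbers was checked by correlating, over genes, the deviations of libraries that share a number: r was 0.35, 0.26 and -0.05. For libraries with different numbers r ran from -0.34 to 0.11, so numbers 1 and 2 lay above that range and number 3 within it. The labels give only the 2 groups, and the numbers were treated as unpaired. With a replicate block 49 genes and 0 members were called, Rpl39l having an edgeR adjusted p of 0.0784. For the ratios the block leaves the differences as they are (-0.05, 0.12, -0.06, -0.12 and -0.28), and the exact sign-flip test of 3 pairs cannot go below 0.25. Depth limits Timm8a1, with 11 to 23 reads per library, and the parents Rpl39, Cetn2 and Utp14a, with 237 to 710.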
